A study of Mus musculus with 8 samples.

Results

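This account describes the response of wild-type mouse macrophages to calcitriol, measured as RNA signal on 1-colour oligonucleotide arrays. It rests on 4 of the 8 arrays of the series, which were chosen by their labels alone: all arrays labelled wild type, 2 with and 2 without calcitriol, paired by IFN-gamma. The cells were bone marrow derived macrophages, grown from marrow for 7 days in M-CSF, the macrophage growth factor, at 50 ng/ml. The groups were wild-type cells labelled untreated, treated with calcitriol, treated with IFN-gamma, and treated with both, each for 24 to 48 hours, with 1 array a group. The other 4 arrays held the same treatments of cells from Vdr-/- mice, which the label of the untreated one names as Vdr tm1 Rge knockout mice. Of the wild-type mice neither strain nor age is stated, and the sources used here do not say what doses were applied or whether arrays came from separate mice or cultures. A protocol for peritoneal macrophages stands in the labels too, but each sample is labelled as marrow derived. P-values therefore measure only the spread between these arrays, which may be technical.

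Calcitriol, written 1alpha,25(OH)2D3 in the labels, is the hormonally active form of vitamin D. It binds the vitamin D receptor, a nuclear receptor encoded by Vdr, which pairs with the retinoid X receptor and binds DNA at direct repeats of a hexamer spaced by 3 bases, named DR3 elements. Cyp24a1, the enzyme that breaks down calcitriol, is its classical target gene. Macrophages carry the receptor, and IFN-gamma is the cytokine that drives classical macrophage activation, with antigen presentation, chemokine production and microbial killing.

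The data were arrays of equal overall brightness, but 1 of the 4 stood apart. Each array had a 2% trimmed mean signal of 150.07 to 150.08, and median signals were 58.4 to 68.2. Log2 signals of the calcitriol array correlated with those of the other 3 wild-type arrays at Pearson's r of 0.741 to 0.765 across probe sets, which are not independent replicates, while those 3 had r of 0.815 to 0.839 with each other. On many array designs a high ratio of 3' to 5' signal from the same control transcript reflects RNA or copies of it that lack their 5' end. The Gapdh ratio was 1.11 on the array labelled wild-type untreated, 7.67 with calcitriol, 1.04 with IFN-gamma and 1.65 with both. The beta-actin ratios were 1.47, 4.08, 1.63 and 1.81 in the same order, and those of ThrX, a bacterial control transcript, were 2.69, 72.8, 2.78 and 4.14. In both pairs the calcitriol array had the higher ratio, by a wide margin without IFN-gamma and a narrow one with it. The array labelled Vdr-/- untreated had the next highest Gapdh ratio, 4.82.

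**Figure D1:**
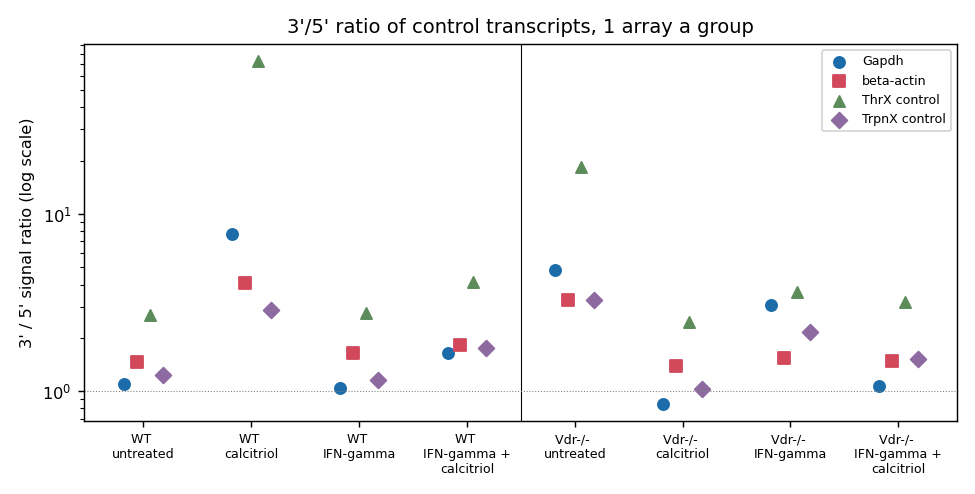
Signal ratio of 3' to 5' control probe sets (y axis, log scale, no unit) on each of the 8 arrays (x axis), 1 point for each control transcript, with wild-type and Vdr-/- arrays side by side. For Gapdh the wild-type calcitriol array had 7.67, the array labelled Vdr-/- untreated 4.82, and the other 6 arrays 0.853 to 3.06.

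Vdr itself, the gene deleted in the knockout mice, checks the labels, and it went against those of the untreated arrays. The brighter of its probe sets by mean signal (1418176_at) read 5.3 on the wild-type array labelled untreated, 118 with calcitriol, 82.9 with IFN-gamma and 386 with both. On the Vdr-/- arrays in the same order it read 63.2, 9.8, 2.5 and 23.6. The array labelled wild-type untreated thus read lower than the array labelled Vdr-/- untreated, and the other probe set (1418175_at) gave the same order, with 6.7 against 90.3. Which part of the transcript these probe sets cover was not examined here, so the reading does not settle whether the labels were exchanged, and every change given below for the pair without IFN-gamma rests on the array labelled wild-type untreated.

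Macrophage markers were bright on all 4 wild-type arrays. Csf1r, the receptor for M-CSF, read 17765 on the array labelled untreated, 23146 with calcitriol, 18249.7 with IFN-gamma and 9769 with both, and 4 signals given together follow this order throughout. Adgre1, which encodes the macrophage surface antigen F4/80, read 2475, 2832, 4058 and 2671. The signals of the 20 tested macrophage identity genes summed to 144846, 140051, 135556 and 115123 in that order, sums in which the brightest genes weigh most. Their geometric means were 3719, 1839, 3552 and 2355, lower with calcitriol in both pairs. Members differed: Cd68 read 6140, 1976, 3528 and 2589 and Itgam 397, 80, 344 and 106, whereas Mpeg1 read 7741, 13850, 8777 and 10795. The signals of the 9 tested neutrophil genes summed to 855.1, 909.0, 1179 and 585.9. For lymphocyte and NK cell genes the sums were 276.2, 640.3, 315.2 and 254.5 over 10 genes, for dendritic cell genes 1270, 1629, 1315 and 2504 over 7, and for erythroid, megakaryocyte and mast cell genes 289.4, 311.3, 185.3 and 336.3 over 8. Those of stromal genes were 9456.5, 4289, 11056 and 4393 over 9, of which Vim, an intermediate filament gene that macrophages also express, gave 8499.7, 2902, 10639.7 and 3968. In bulk RNA, fewer cells of a type and less RNA per cell cannot be told apart.

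The change with calcitriol differed between the 2 pairs of arrays. Lower signals were raised to a floor of 15.5 (the 25th percentile over all arrays) and put on the log2 scale, and a probe set was tested if it reached 59.1, the median over all arrays, on at least 1 array. This left 18058 probe sets, covering 10437 named genes, and a change from or to a signal under the floor is counted from 15.5 and is understated. Across them the log2 change without IFN-gamma and that with IFN-gamma had the same sign for 55.1% of the 16273 probe sets that moved in both pairs, with Pearson's r of 0.078. Among the 5696 whose mean signal over the 8 arrays reached 155.3, the 75th percentile, r was 0.286. Changes of at least 2 log2 were seen for 1451 probe sets higher and 1353 lower without IFN-gamma, and for 853 higher and 952 lower with it. Both pairs reached that size for 99 probe sets higher and 87 lower, and both reached 1 log2 for 780 higher (4.32%) and 694 lower (3.84%). The pair without IFN-gamma, which holds the array with the high 3'/5' ratios, had the wider spread of changes, with an SD across probe sets of 1.31 log2 against 1.11.

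The test was limma's moderated fit over all 8 arrays, with the mean of the 2 wild-type pair differences as the calcitriol effect and the Vdr-/- arrays adding to the estimate of spread. It called 104 of 18058 probe sets (0.576%) at a Benjamini-Hochberg adjusted p under 0.05, 34 higher (0.188%) and 70 lower (0.388%). By the brightest probe set of each gene, 23 of 10437 named genes rose (0.22%) and 35 fell (0.335%). Without the Vdr-/- arrays the calls were lost: limma on the 4 wild-type arrays alone called 0 probe sets, with a lowest adjusted p of 0.754, while 938 (5.19%) had an unadjusted p under 0.05. Each pair taken alone, on the assumption that wild-type arrays vary like Vdr-/- arrays, also gave 0 calls, with 1963 probe sets at an unadjusted p under 0.05 for the pair without IFN-gamma and 1160 for the pair with it.

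**Figure D2:**
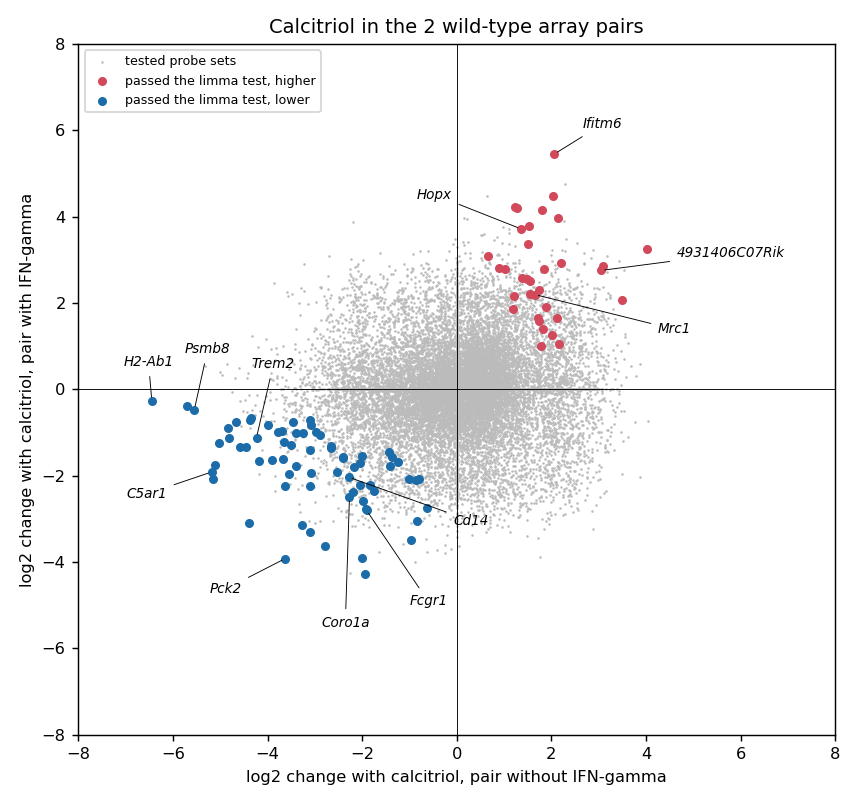
Log2 change with calcitriol in the wild-type pair without IFN-gamma (x axis) against that in the pair with IFN-gamma (y axis), 1 point for each of 18058 tested probe sets, with those that passed the limma test coloured by direction. The 34 called higher tended to lie further along the y axis (medians 1.74 and 2.67) and the 70 called lower further along the x axis (medians -3.10 and -1.67).

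Most rises were larger with IFN-gamma and most falls larger without it. Of the 34 probe sets that rose, 23 changed more in the pair with IFN-gamma, with medians of 1.74 log2 without it and 2.67 with it, and effects ran from 1.40 to 3.76. The 70 that fell had effects from -1.44 to -3.77, 47 of them changed more in the pair without IFN-gamma, and the medians were -3.10 and -1.67. On the array with calcitriol alone, 16 of the 70 were at the floor, and 4 were at the floor with both agents. Both arrays with calcitriol lay beyond both without it for 29 of the 34 (18.6% of all tested probe sets did so upwards) and 61 of the 70 (15.9% downwards), a count the choice of called probe sets largely fixes.

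The 3'/5' ratios differed between the sides of the comparison, so the calls were set against them. With the log2 Gapdh ratio as a covariate in the limma fit, 34 of the 34 rises kept their sign and 20 stayed called, and their median effect went from 2.02 to 2.65 log2. Of the 70 falls, 59 kept their sign and 13 stayed called, and their median went from -2.37 to -1.14. That fit called 105 probe sets, 48 higher and 57 lower, of which 33 were shared with the 104. It had 1 residual degree of freedom, and limma took the spread of every probe set from the intensity trend alone, as if known. Its calls and adjusted p-values, here and below, are therefore not on the footing of the main fit. The slope of the covariate comes only from how the pairs of each genotype differ, and these pairs also differ in IFN-gamma. The fit thus cannot tell the Gapdh ratio from a calcitriol effect that depends on IFN-gamma, and shifts towards the pair with IFN-gamma follow from this. Of the 24 genes with the largest smaller-pair change, 9 stayed called with the covariate: 4931406C07Rik, Dnmt3a, Ifitm6, Cd28, Hsph1, Bhlhe40, Coro1a, Fos and 1600014C10Rik. A direct comparison of the wild-type calcitriol array with the array labelled Vdr-/- untreated, the other array of high ratio, had 33 of the 34 above it (49.2% of all tested) and 64 of the 70 below it (46.3% of all tested). The called probe sets were chosen with the calcitriol array itself, so these counts are a description. How far the 3'/5' difference accounts for any single change was not tested.

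Among the genes that rose, those with the largest change in the smaller of their 2 pairs are described first. Ugcg, the enzyme that makes glucosylceramide, read 11 on the array labelled untreated, 131 with calcitriol, 48 with IFN-gamma and 348 with both. Both arrays with calcitriol were above both without, and the limma effect was 2.97 ± 0.68 (SE), adjusted p = 0.0434. Its probe sets 1421269_at and 1435133_at had smaller mean changes of 1.92 and 0.99 log2, neither called. Another gene, 4931406C07Rik, read 112, 927, 169.7 and 1146, an 8.30-fold and a 6.75-fold difference. It had the lowest adjusted p of the rises named here (2.90 ± 0.38 (SE), adjusted p = 0.00197 by limma), its values with calcitriol stood far above the other 2, and it read 229.5 to 265 on the 4 Vdr-/- arrays. Its second probe set (1454067_a_at) went from 106.5 to 366 without IFN-gamma and from 130.9 to 551 with it.

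Dnmt3a, a methyltransferase that sets new DNA methylation marks, read 379.6 on the array labelled untreated, 1749.8 with calcitriol, 263 with IFN-gamma and 2000.4 with both. The rise was 2.57 log2 (limma adjusted p = 0.0037), and the groups did not overlap. Its other 4 probe sets had mean changes of 0.18 to 1.32 log2, none of them called, so the size of the rise depended on the probe set. Hsph1, a chaperone of the heat shock family, read 209, 752, 114 and 789 and rose by 2.32 log2 (limma adjusted p = 0.011). Its second, dimmer probe set differed by 0.00 log2 without IFN-gamma and 0.95 with it. Gnl3, a nucleolar GTPase, read 272, 894, 151 and 474 and rose by nearly the same amount in both pairs, 1.72 and 1.65 log2 (limma adjusted p = 0.0395). Dipk2a read 91.9, 306, 119.5 and 593 and rose by 2.02 log2 (limma adjusted p = 0.0486), while its second probe set had a mean change of 0.88 log2 and was not called. Each of these genes read higher on both calcitriol arrays than on either array without it.

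Rises of immune genes included receptors, chemokines and a death kinase. Ripk3, the kinase of necroptosis, read 3.7 on the array labelled untreated, 175 with calcitriol, 89.4 with IFN-gamma and 373 with both, and the array labelled untreated was at the floor. Its limma effect was 2.78 ± 0.64 (SE), adjusted p = 0.0424. Cd28, best known as a costimulatory receptor of T cells, read 146, 598, 4.8 and 343, with the IFN-gamma array at the floor. Its second probe set (1417597_at) read 239.9, 471, 26.2 and 354 in the same order, so the large difference under IFN-gamma was seen by both, although only the first was called (limma adjusted p = 0.0179). Ifitm6, of the interferon-induced transmembrane family, read 50, 209, 8 and 678. It had the largest mean rise of all called probe sets, 3.76 ± 0.78 (SE), adjusted p = 0.0254 by limma, most of it from the pair with IFN-gamma. With the Gapdh covariate the effects were 1.36 log2 for Ripk3, no longer called (limma adjusted p = 0.849), 4.65 for Cd28 and 5.92 for Ifitm6.

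Mrc1, the mannose receptor and a marker of alternative activation, read 358 on the array labelled untreated, 1125 with calcitriol, 76 with IFN-gamma and 348 with both. Calcitriol arrays were 3.14-fold and 4.58-fold above their partners (limma effect 1.92 ± 0.39 (SE), adjusted p = 0.0216), but the array with both agents (348) was just under the array labelled untreated (358), so the groups overlapped across IFN-gamma states. Bhlhe40, a transcriptional repressor induced by hypoxia, read 162, 563, 14 and 276 and rose by 2.98 log2 (limma adjusted p = 0.0385). Ccl4, a chemokine that attracts monocytes and lymphocytes, read 103, 449, 231 and 731 and rose by 1.89 log2 (limma adjusted p = 0.0331). For Ccl4 and Bhlhe40 both arrays with calcitriol were above both without. Ccl6, another macrophage chemokine, read 1674, 3117, 1321 and 9237 and rose by 1.85 log2 (limma adjusted p = 0.0186), and both of its probe sets were called. Tgm2, a transglutaminase of alternatively activated macrophages, read 708, 2843, 3798 and 9054, and 3 of its 6 probe sets were called higher (limma adjusted p = 0.0182 for the brightest). The remaining 3 Tgm2 probe sets had mean changes of 0.38, 1.20 and -1.63 log2. Tgm2 overlapped across IFN-gamma states, because IFN-gamma alone read 3798 against 2843 with calcitriol alone. The covariate fit gave 3.89 log2 for Bhlhe40, 3.20 for Ccl6 and 1.11 for Tgm2, the last no longer called (limma adjusted p = 0.64).

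**Figure D3:**
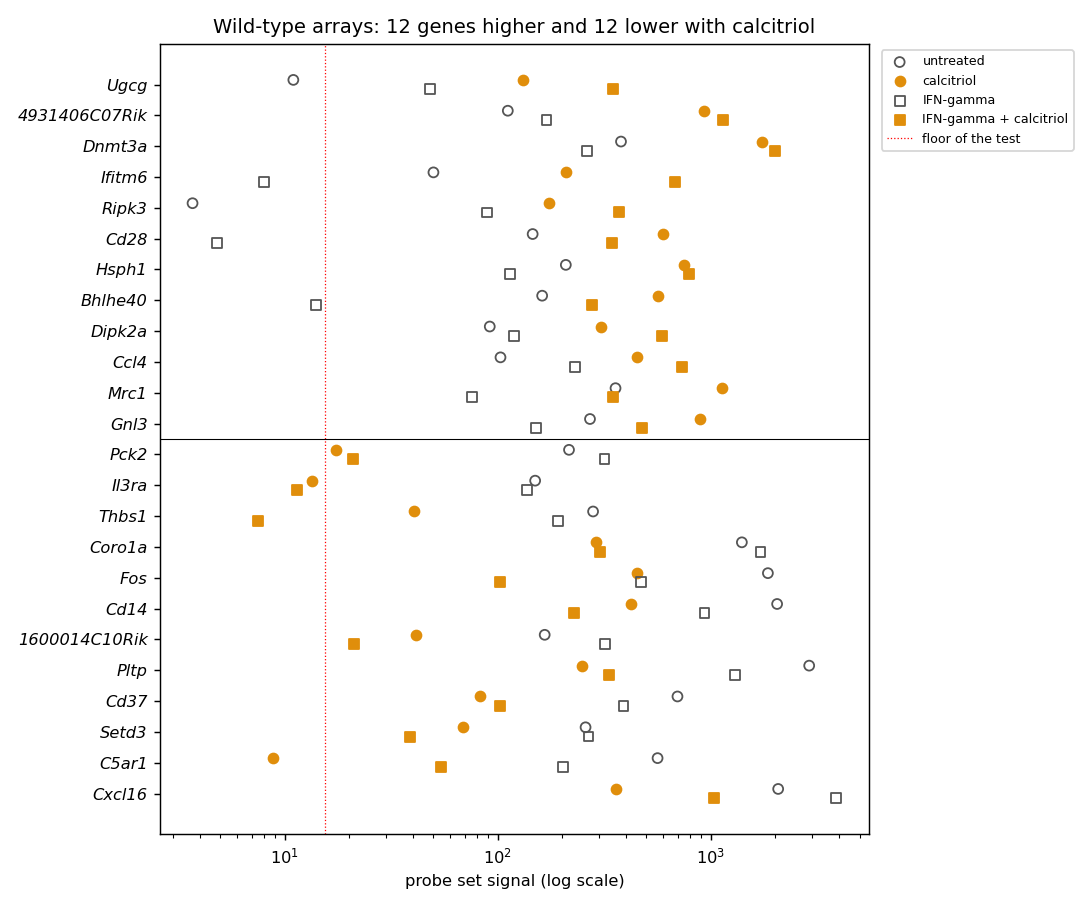
Signal on the 4 wild-type arrays (x axis, log scale, array units), 1 point for each array, for the 24 genes with the largest smaller-pair change (y axis), 12 risen above the line and 12 fallen below it, with the floor of the test as a dotted line. Filled symbols, with calcitriol, lie to the right of open symbols for the risen genes and to the left for the fallen ones, apart from the overlap of Mrc1 described in the text.

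The promoters of the genes that changed most were searched for the receptor's element, because the treatment acts through a DNA-binding receptor. RefSeq promoters (build GRCm38.p6, 250 bases before to 50 after each start) were held for 18 of the 24 genes with the largest smaller-pair change, in all 26 promoters. A DR3 match was 2 hexamers in the same direction, spaced by 3 bases, on either strand, each being AGGTCA, its variant AGTTCA, the form GGGTCA or the form GGTTCA. It was found in 0 of the 26 and in 13 of all 32851 promoters (0.0396%). A match is so rare in these short windows that 0 of 26 was to be foreseen, and it does not bear on whether the receptor acted at these genes. Single hexamers, which may overlap other motifs, were found in 3 of 14 promoters of the risen genes (21.4%), 3 of 12 of the fallen genes (25.0%) and 43.7% of all. Of the 3 promoters held for 4931406C07Rik, the rise with the lowest adjusted p named here, 1 had a hexamer and the other 2 had none. That promoter, chosen for its matches, and that of Vdr, the receptor gene, are printed with their hexamers in capitals on the strand of the gene (minus strand for both, chr9:15301558-15301857 and chr15:97908247-97908546).
4931406C07Rik: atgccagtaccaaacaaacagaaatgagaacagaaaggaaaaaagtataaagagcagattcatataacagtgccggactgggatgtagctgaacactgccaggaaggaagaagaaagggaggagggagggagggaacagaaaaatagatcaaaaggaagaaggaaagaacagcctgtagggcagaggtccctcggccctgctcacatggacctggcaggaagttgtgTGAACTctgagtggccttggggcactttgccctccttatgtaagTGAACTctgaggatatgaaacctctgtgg
Vdr: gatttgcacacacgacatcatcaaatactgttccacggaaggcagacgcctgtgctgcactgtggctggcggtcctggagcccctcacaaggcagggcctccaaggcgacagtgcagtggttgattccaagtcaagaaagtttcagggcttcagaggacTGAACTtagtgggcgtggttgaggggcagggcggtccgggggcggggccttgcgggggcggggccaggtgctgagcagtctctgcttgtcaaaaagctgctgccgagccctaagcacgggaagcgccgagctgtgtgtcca
The first held 2 hexamers and the second 1, with no DR3 match in either window.

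Hopx was the gene of the list drawn up for the vitamin D axis that passed the test. The members of the list were chosen with earlier results of these data known, so its counts are a description. Of 19 tested genes, 1 rose, beside 0.22% of all named genes, none fell, and the median change was 0.44 log2, against 0.053 over all named genes. Hopx, a homeodomain protein that does not bind DNA, read 160.1 on the array labelled untreated, 411 with calcitriol, 152 with IFN-gamma and 1999.7 with both, a 2.56-fold and a 13.1-fold difference, and both arrays with calcitriol lay above the others (limma effect 2.54 ± 0.50 (SE), adjusted p = 0.0179). Its second, dimmer probe set (1451776_s_at) read 78.9, 82.3, 45.1 and 117.4, a difference of 0.06 log2 without IFN-gamma and 1.38 with it, and was not called (limma adjusted p = 0.818). Vdr was 2.93 log2 higher without IFN-gamma, where the array labelled untreated was at the floor, and 2.22 higher with it, which was not called (limma adjusted p = 0.293). Cyp24a1 read 43.1, 92.4, 43.1 and 162. The calcitriol arrays were the brighter ones in both pairs, but the mean change of 1.50 log2 was not called (limma adjusted p = 0.592), and its other probe set was above the floor only with both agents, at 60.6. Cyp27b1, which makes calcitriol, differed by 1.32 and 1.56 log2, Nrip1, a nuclear receptor corepressor, by 1.85 and 1.58, and Cyp27a1, a sterol hydroxylase, by -1.18 and -1.30. None of these 3 was called. Camp, a calcitriol target in human cells that is known not to respond in mice, read 39.3, 46.5, 10 and 4.1, at the dim end of the table.

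The genes that fell included surface receptors of myeloid cells. Cd14, the coreceptor for lipopolysaccharide, read 2052 on the array labelled untreated, 422 with calcitriol, 936 with IFN-gamma and 228 with both. Both arrays with calcitriol were below both without, and the limma effect was -2.16 ± 0.37 (SE), adjusted p = 0.00636. Fcgr1, the high-affinity receptor for IgG, read 544, 145, 3897 and 558, a 3.75-fold and a 6.99-fold difference. It fell by 2.36 log2 (limma adjusted p = 0.00439), yet the array with both agents (558) was slightly above the array labelled untreated (544), and the arrays with IFN-gamma were the brighter ones. The covariate for the Gapdh ratio left it at -2.43 log2, still called. C5ar1, the receptor for complement C5a, read 564, 8.8, 204 and 54, at the floor with calcitriol alone. It fell by 5.18 log2 without IFN-gamma and fell by 1.91 with it (limma adjusted p = 0.0179), and the covariate fit gave -1.24, which was not called (limma adjusted p = 0.867). Il3ra, the alpha chain of the interleukin-3 receptor, read 150.1, 13.4, 137 and 11.4. Both calcitriol arrays were at the floor, so it was at least 9.25-fold lower (limma adjusted p = 0.0424). Cd37, a tetraspanin of leukocytes, read 699, 82.9, 390.2 and 102 and fell by 2.50 log2 (limma adjusted p = 0.0107). Its second probe set went the other way, by 0.87 and 0.76 log2. With the covariate the effects were -1.45 log2 for Cd14 and -1.18 for Cd37, neither called (limma adjusted p = 0.323 and 0.748).

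Trem2, a lipid-sensing receptor of macrophages, is an example of a fall carried mostly by 1 pair. It read 5682 on the array labelled untreated, 302 with calcitriol, 4349 with IFN-gamma and 2006 with both, and fell by 4.23 log2 without IFN-gamma and 1.12 with it (limma adjusted p = 0.026). With the Gapdh covariate its effect was 0.41 log2, the opposite sign. A dimmer Trem2 probe set (1421226_at) changed by -2.55 log2 without IFN-gamma and -0.78 with it and was not called. H2-Ab1, a beta chain of MHC class II, read 1353, 4.1, 10618 and 8834, so that it fell by 6.45 log2 in the pair without IFN-gamma, while the other pair differed by -0.27 (limma adjusted p = 0.0285 for the mean), and the covariate gave 1.07. Another H2-Ab1 probe set (1450648_s_at) read 1151, 297.9, 9468 and 6654 in the same order, less low on the calcitriol array and not called, while a further one (1425477_x_at) read 321, 6.7, 4305 and 2631 and was called lower (limma adjusted p = 0.0191). Psmb8, a catalytic subunit of the immunoproteasome, read 725, 11.6, 2922 and 2112, and the covariate turned its effect from -3.01 (limma adjusted p = 0.0385) to 1.19 log2. Klf6, a Kruppel-like transcription factor, read 740.3, 21.4, 1145 and 340.3, and its effect went from -3.43 (limma adjusted p = 0.00535) to -0.39 log2 with the covariate. All 4 of these genes were also lower on the array labelled Vdr-/- untreated than with calcitriol in Vdr-/- cells, for example 402 against 5417 for Trem2 and 126 against 771 for Psmb8. This was not particular to them. It held for 68 of the 70 called falls, beside 42.1% of all tested probe sets, and for genes described below such as Pck2 (16.9 against 194) and Pltp (337 against 4136).

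Falls of other kinds were more even over the pairs. Pck2, the mitochondrial enzyme that makes phosphoenolpyruvate, read 216 on the array labelled untreated, 17.5 with calcitriol, 318 with IFN-gamma and 21 with both. It had the largest mean fall of all called probe sets, -3.77 ± 0.74 (SE), adjusted p = 0.0181 by limma. Its second probe set, dimmer, went from 76.1 to 18.4 without IFN-gamma and read 15.6 and 10.1 with it, so the fall under IFN-gamma rests on the first, and the covariate fit gave -3.08 log2, not called (limma adjusted p = 0.446). Coro1a, an actin-binding protein of leukocytes, read 1402, 291, 1714 and 302, with nearly equal changes of -2.27 and -2.50 log2 (limma adjusted p = 0.00197). The groups lay far apart for that probe set (1416246_a_at), but a second (1455269_a_at) read 934.7, 812, 1162 and 331.9, a difference mainly under IFN-gamma. Fos, the immediate early subunit of AP-1, read 1857, 449.8, 473 and 102. It fell by 2.13 log2 (limma adjusted p = 0.00376), and each calcitriol array was more than 4-fold below its partner, although IFN-gamma alone read about as low as calcitriol alone.

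Thbs1, the matrix glycoprotein thrombospondin, read 281 on the array labelled untreated, 40.7 with calcitriol, 192 with IFN-gamma and 7.5 with both, with both calcitriol arrays below the others (limma effect -3.21 ± 0.59 (SE), adjusted p = 0.0125). Its second probe set (1450377_at) changed by -1.30 log2 without IFN-gamma and -0.87 with it and was not called. Setd3, a methyltransferase of actin, read 259, 68.5, 267 and 38.9 and fell by 2.35 log2 (limma adjusted p = 0.0363). 1600014C10Rik read 166, 41.5, 318 and 21.3 and fell by 2.95 log2 (limma adjusted p = 0.0275), but its other 2 probe sets changed by 2.68 and -0.60 log2. Cxcl16, a transmembrane chemokine that also takes up oxidised lipoprotein, read 2075, 359, 3893 and 1035. Both of its probe sets were called lower, and the brighter one fell by 2.22 log2 (limma adjusted p = 0.00243). Pltp, which transfers phospholipids between lipoproteins, read 2902, 249.8, 1301 and 333, and both of its probe sets were called too. The brighter Pltp probe set fell by 3.54 log2 without IFN-gamma and 1.97 with it, and the dimmer one had -0.97 and -3.48. With the Gapdh covariate the effects were -0.58 log2 for Pltp (limma adjusted p = 0.878) and -1.59 for Cxcl16 (0.166). All 5 genes read lower on both calcitriol arrays than on either array without it.

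Other probe sets of the same genes show how far a change was shared within a gene. They were read on the same arrays, so their agreement does not separate a response of the gene from a difference between arrays. Over all named genes the median change was 0.053 log2. For 15 of the 23 risen genes there were 30 more tested probe sets, of which 28 changed upwards on average, 26 without IFN-gamma and 27 with it. For 17 of the 35 fallen genes there were also 30, of which 27 changed downwards, 20 without IFN-gamma and 27 with it. Only 3 and 4 of these were called themselves. Probe sets with an "_a_at" name, given to sets that match several transcripts of a gene, made up 19.0% of all tested, 14.7% of the rises and 37.1% of the falls.

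Lists of myeloid receptors and antigen presentation genes held 1 to 3 falls each and no rise. Over all named genes 0.22% rose and 0.335% fell, with a median of 0.053 log2. Macrophage identity genes had 3 of 20 fall (Cd14, Fcgr1 and Trem2) and a median of -0.74 log2, and Itgam, the alpha chain of complement receptor 3, read 397 on the array labelled untreated, 80 with calcitriol, 344 with IFN-gamma and 106 with both. It was not called (limma adjusted p = 0.051). Complement genes had 1 of 12 fall (C5ar1) and a median of -1.05, with C1qa at -1.94 and -0.75 log2. Fc receptor genes had 1 of 10 fall (Fcgr1) with a median of -0.65, and pattern recognition genes 1 of 18 (Cd14) with -0.14. Of the Toll-like receptors, Tlr2 differed by -1.19 and -1.28 log2 and was not called. MHC class I genes had 1 of 15 fall (Psmb8) with a median of -0.97, and MHC class II genes 1 of 13 (H2-Ab1) with -0.53. In all these lists the median was lower in the pair without IFN-gamma, except for the Fc receptors and the pattern recognition genes, whose medians were -0.35 and 0.44 without IFN-gamma and -0.82 and -0.78 with it.

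Among genes that IFN-gamma induces, Psmb8, H2-Ab1 and Fcgr1 fell as described. The lists of IFN-induced GTPases and of IFN signalling genes had no called member. They held 11 GTPases (median -0.08 log2) and 18 signalling genes (median -0.46), beside 0.22% of all named genes risen and 0.335% fallen. Some signalling genes were not brighter with IFN-gamma, such as Jak1, with 572 on the array labelled untreated and 355 with IFN-gamma. Irf1, a transcription factor that IFN-gamma induces early, read 274 on the array labelled untreated, 193 with calcitriol, 4098 with IFN-gamma and 3349 with both (limma effect -0.40 ± 0.31 (SE), adjusted p = 0.713). Ciita, the master regulator of MHC class II genes, read 72, 4.2, 715 and 353, a difference of -1.62 log2 that was not called (limma adjusted p = 0.319). Cd74, the invariant chain, read 5106, 3172, 19726 and 15207, and Cxcl9, an IFN-induced chemokine, 25.4, 5.9, 5633 and 3527. All 4 genes were brightest with IFN-gamma, and each calcitriol array was the lower of its pair, without a call. Of 21 interferon-stimulated genes 1 rose (Ifitm6) with a median of 0.11, and Ifitm3, its relative, differed by 1.59 and 1.32 log2 without being called.

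Secreted factors and effectors gave mixed values, beside 0.22% of all named genes risen, 0.335% fallen and an all-gene median of 0.053 log2. Chemokine genes had 2 of 19 rise (Ccl4 and Ccl6) and 1 fall (Cxcl16), with a median of 0.16 log2. None of 14 cytokine genes was called (median -0.01). Tnf read 33.8 on the array labelled untreated, 125 with calcitriol, 240.2 with IFN-gamma and 162 with both, which is higher with calcitriol alone and lower with both. Il12b read 47.8, 55.9, 5.1 and 73.6 and Il10 35.1, 24.7, 82.1 and 2.1, differences not called by limma (adjusted p = 0.712 and 0.641). Nos2, the inducible nitric oxide synthase, was above the floor only with both agents, at 68. Of 16 oxidant and antimicrobial genes none was called (median 0.01), and Cybb, the catalytic subunit of the NADPH oxidase, differed by -1.55 and -1.19 log2 (limma adjusted p = 0.0843). Cytokine receptor genes had 1 of 22 fall (Il3ra) with a median of -0.66.

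Metabolic, stress and differentiation lists had at most 3 called members each, where 0.22% of all named genes rose and 0.335% fell, with a median of 0.053 log2. Alternative activation genes had 2 of 11 rise (Mrc1 and Tgm2), none fall, and a median of 0.20 log2, with Egr2 at 1.40 and 1.90 and not called. Only 5 of the 11 had the same sign in both pairs. Markers of the same list that did not rise in both included Clec10a, at 0.35 and -2.90 log2, and Chil3, which read 76.6, 8.8, 6.5 and 7.6. Lipid handling genes had 1 of 24 rise (Ugcg) and 2 fall (Pltp and Trem2), with a median of 0.01, and Scd1, a desaturase, differed by 2.58 and 1.82. Immediate early genes had 2 of 21 fall (Fos and Klf6) with a median of -0.55, and Fos was also the 1 of 15 osteoclast lineage genes to fall. Amino acid stress genes had 1 of 18 fall (Pck2), whereas Asns and Psat1 of the same list read higher with calcitriol in both pairs, by 1.06 to 2.14 log2, without a call. Heat shock genes had 1 of 15 rise (Hsph1) and a median of 0.38, glycolysis and hypoxia genes 1 of 18 (Bhlhe40) with 0.31, and cell death genes 1 of 17 (Ripk3) with 0.02.

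**Figure D4:**
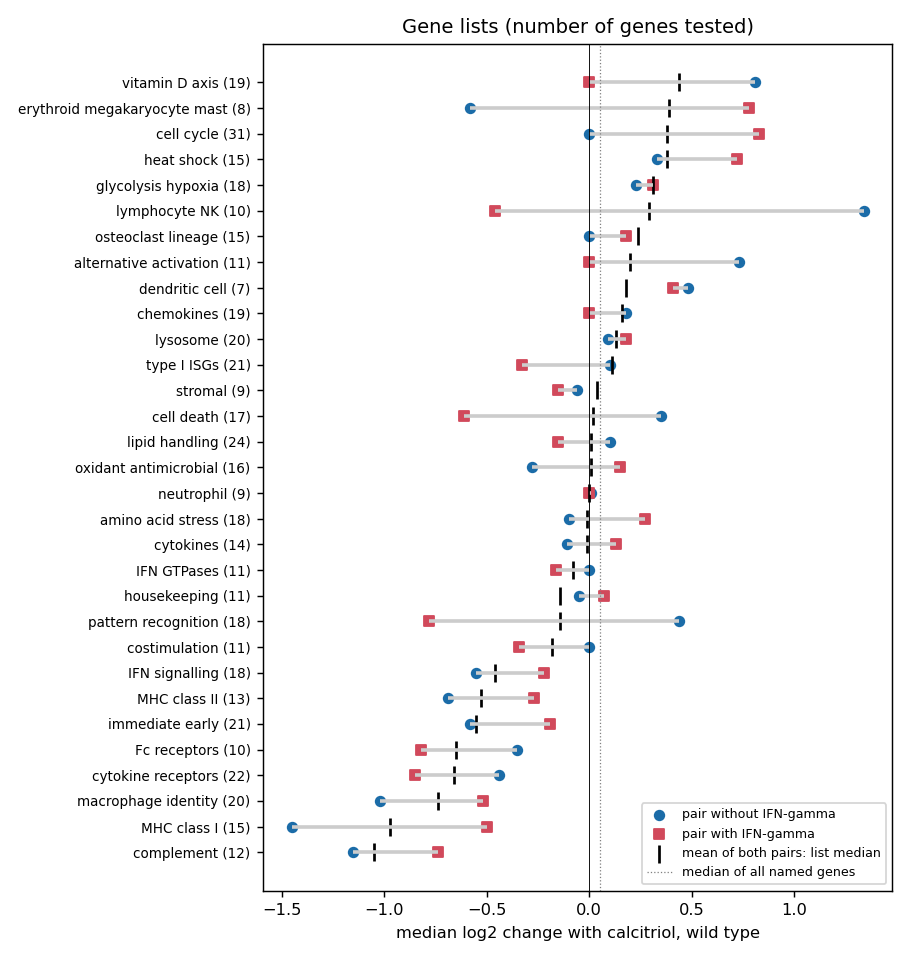
Median log2 change with calcitriol over the tested genes of each list (y axis) in the pair without IFN-gamma, the pair with IFN-gamma and their mean (x axis). The list medians of the mean ran from -1.05 for complement genes to 0.44 for the vitamin D axis, against 0.053 over all 10437 named genes.

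The comparison with Vdr-/- cells asks whether calcitriol acted through its receptor. In those cells the risen probe sets had median changes of -0.53 log2 without IFN-gamma and -0.20 with it, and the fallen ones 1.46 and 0.22. The effect in wild type minus that in Vdr-/- cells passed the limma test for 271 of 18058 probe sets (1.5%), 31 higher (0.172%) and 240 lower (1.33%). They included 19 of the 34 rises and 57 of the 70 falls, but the wild-type effect enters both tests, so these counts are not independent of the choice. Of the 70 falls, 68 read lower on the array labelled Vdr-/- untreated than on the Vdr-/- calcitriol array, as did 42.1% of all tested probe sets. The arrays with the 2 highest Gapdh ratios were thus the treated one in wild type and the untreated one in Vdr-/-. With IFN-gamma too, the ratio was higher with calcitriol in wild type (1.65 against 1.04) and lower with it in Vdr-/- (1.07 against 3.06). The part of this in the difference was not tested.

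Individual genes differed in what the Vdr-/- arrays showed. For Ugcg the Vdr-/- arrays read 85.5, 56.3, 129 and 104 in the order untreated, calcitriol, IFN-gamma and both, with no higher signal under calcitriol in either pair. Coro1a read 574, 1601, 1425 and 1818, the lowest on the array labelled untreated, whose Gapdh ratio was 4.82. The Vdr-/- pair with IFN-gamma also differed in that ratio, with 3.06 without calcitriol and 1.07 with it. Fos read 1698, 1880.1, 574 and 438, lower with IFN-gamma and little different with calcitriol. For Thbs1 the values were 118, 182, 198 and 177, a narrow range beside the more than 6-fold differences in wild type. Cd14 read 826, 2272, 1037 and 835, higher under calcitriol without IFN-gamma and lower with it.

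**Figure D5:**
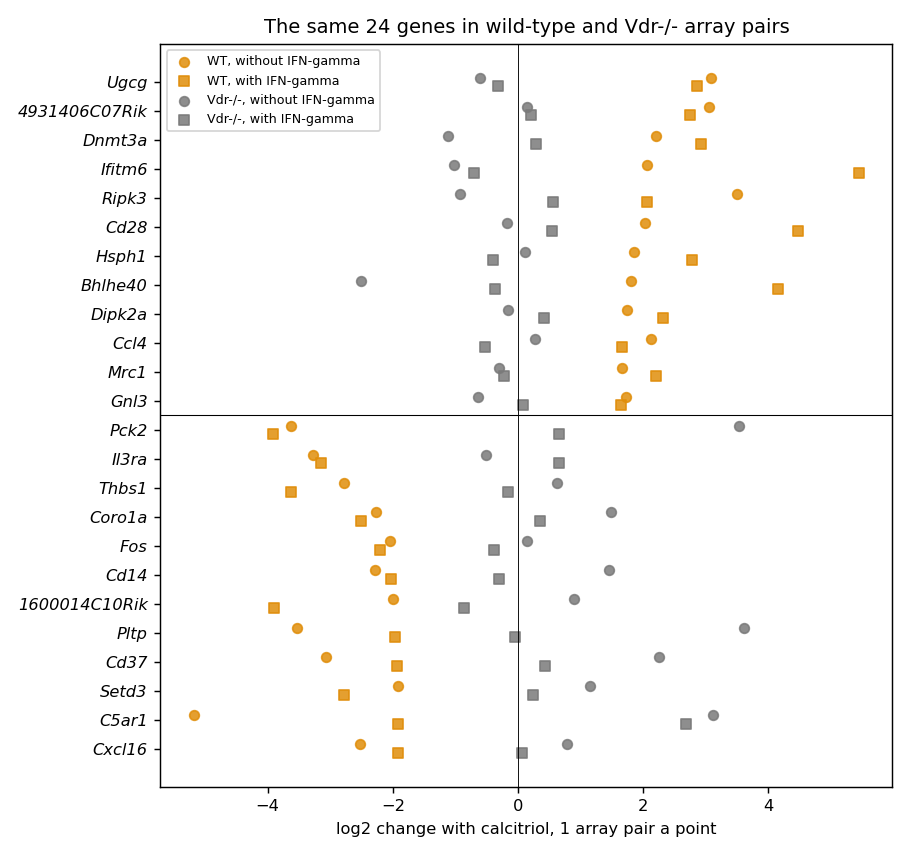
Log2 change with calcitriol (x axis) in wild-type and Vdr-/- array pairs, without and with IFN-gamma, for the same 24 genes (y axis), 1 point for each pair. C5ar1 changed by -5.18 and -1.91 log2 in wild type and by 3.11 and 2.69 in Vdr-/- cells, while 4931406C07Rik changed by 3.05 and 2.75 in wild type and by 0.14 and 0.21 in Vdr-/- cells.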

How the data were processed

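The deposited values were linear probe set signals, an intensity for each of 22690 probe sets, which the authors had scaled to a common trimmed mean, as the values show. The sources used here name no software, scaling method or detection calls. Leaving out 64 controls left 22626, of which 20380 had 1 gene in the platform annotation, 691 several and 1555 none. Signals were floored at 15.5 and log2 was taken, and 15.3% of tested wild-type values were at the floor. The precision is limited by the small number of arrays and by signal over background.

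Tests used limma 3.58.1 in R 4.3.3 (two-sided, intensity trend, Benjamini-Hochberg over 18058 probe sets), with a block for each genotype and IFN-gamma state and 2 residual degrees of freedom. They were tested on simulated data first. Genes were represented by their brightest probe set. Named were the 12 rises and 12 falls with the largest smaller-pair change among called genes, 17 genes always reported (Spp1 had no singly named probe set), and called and defining members of 26 pathway and 5 marker lists, some chosen after their values were seen. The comparison, members and lists were chosen with earlier results of these data known. Other settings tried were quantile normalization, tests without the filter or with a stricter one (155.3), floors at 5.2 and 40.1, no trend, the Gapdh ratio as a covariate, other blocks, wild-type arrays alone, each pair left out and the mean over probe sets. Figures used Python 3.11.15 and matplotlib 3.10.9.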

Additional observations from a re-analysis of the deposited data

Results flagged for a closer look

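The calcitriol effect in wild type differed from that in Vdr-/- cells for 22 of the genes named, by limma's test of the difference at an adjusted p under 0.05. Over all tested probe sets 271 of 18058 (1.5%) did so. The genes named were mostly chosen for a called wild-type effect, which enters the difference too, so the 22 are a description. Each is given as wild type minus Vdr-/- in log2. Higher in wild type were Ifitm6 (4.62), Bhlhe40 (4.42), Hopx (3.31), Dnmt3a (2.99), 4931406C07Rik (2.73), Hsph1 (2.46), Mrc1 (2.19) and Tgm2 (1.92). Receptors that were lower were C5ar1 (-6.45), Trem2 (-4.80), Fcgr1 (-3.79) and Cd14 (-2.73), along with the tetraspanin Cd37 (-3.84). The other genes that were lower were Pck2 (-5.86), Klf6 (-4.79), Pltp (-4.54), Psmb8 (-4.30), Thbs1 (-3.44), Coro1a (-3.30), Setd3 (-3.04), Cxcl16 (-2.65) and Fos (-2.01). The array of highest Gapdh 3'/5' ratio in wild type was the one with calcitriol (7.67), and in Vdr-/- the one labelled untreated (4.82). In the pairs with IFN-gamma the ratio was 1.65 with calcitriol against 1.04 without it in wild type, and 1.07 against 3.06 in Vdr-/-. The part of these ratios in the differences was not tested.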

How the results depend on the processing

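The count of 104 probe sets called in wild type was 58 after quantile normalization, 5 with the lower floor, and 0 with no filter, with the stricter filter, with no intensity trend, without the IFN-gamma block and on the 4 wild-type arrays alone. At an unadjusted p under 0.05 limma gave 1857 probe sets in the fit as reported, and 1680, 1083, 1406, 1309 and 938 in those last 5 fits. Averaging all probe sets of a gene gave 0 of 10437 genes, with 1032 at an unadjusted p under 0.05, and 42 differences from Vdr-/-. Leaving out either pair gave a range of 0 to 0. It was 135 with the higher floor, 105 with the Gapdh covariate (33 of the 104 shared) and 103 with 1 IFN-gamma effect for both genotypes (97 shared). The 271 differences from Vdr-/- became 100 with the lower floor, 73 with the covariate, and 0 with no filter, the stricter filter, no trend or no block (2028, 1378, 1611 and 1603 at an unadjusted p under 0.05). They were 222, 334 and 297 with quantile normalization, the higher floor and the shared IFN-gamma effect. Of the 24 genes with the largest smaller-pair change none turned its sign in any alternative. They were chosen for changes in the same direction in both pairs, which largely fixes that outcome. Of the 24, 9 stayed called with the covariate, 16 with quantile normalization, 4 with the lower floor, 21 with the higher floor, 22 with the shared IFN-gamma effect and 0 in every other setting. The sign turned for Trem2 (0.41), H2-Ab1 (1.07), Psmb8 (1.19) and Tnf (-0.91) with the covariate, for Tnf with pairs left out in turn (-0.57 to 1.89, the lower without the pair lacking IFN-gamma), and for Camp (-0.35) with the lower floor. The cause of these shifts was not tested. No paired analysis by replicate number was possible because the labels carry none, and the pairs used share only their IFN-gamma state. Limits: 1 array a group, 1 array of high 3'/5' ratio on the calcitriol side, and an untreated array whose Vdr signal goes against its label.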

Other observations

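Cell cycle genes had no member among 31 that passed the limma test, beside 0.22% of all named genes risen and 0.335% fallen. Their median was 0.00 log2 without IFN-gamma and 0.83 with it. Aurka, a mitotic kinase, read 8.6 on the array labelled untreated, 139.5 with calcitriol, 13.9 with IFN-gamma and 102 with both, and Ccna2, a cyclin, 8.4, 90.7, 128 and 317. These and Mki67, a proliferation marker that differed by 2.72 and 1.04 log2, were the 3 of 31 at least 1 log2 higher with calcitriol in both pairs, and are named for that (limma adjusted p = 0.167, 0.244 and 0.369 for the 3 genes). Over all named genes, 444 of 10437 were at least 1 log2 higher in both pairs. Only 12 of the 31 had the same sign in both pairs, and others read lower without IFN-gamma, such as Ube2c (-2.23 and 0.56 log2 in the 2 pairs) and Ccnd1 (-2.15 and 1.15). Lysosome genes had none of 20 called (median 0.13 log2), costimulation genes none of 11 (-0.18) and housekeeping genes none of 11 (-0.14). No marker of another cell type was called, among 9 neutrophil, 9 stromal, 10 lymphocyte and NK cell, 7 dendritic cell and 8 erythroid, megakaryocyte and mast cell genes. Their medians were 0.01, -0.06, 1.34, 0.48 and -0.58 log2 without IFN-gamma and 0.00, -0.15, -0.46, 0.41 and 0.78 with it, and the part of such shifts in other results was not tested.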
